A study of Homo sapiens with 2 samples.

Results

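The genes described here are 40 genes of cholesterol and fatty acid synthesis, taken from 20037 protein-coding genes. They are 8 genes of the mevalonate pathway, 11 of the sterol pathway from squalene to cholesterol, 8 of sterol sensing and SREBP processing, 9 of fatty acid synthesis, elongation and desaturation, and 4 long-chain acyl-CoA synthetases. The list was chosen by pathway and does not hold every enzyme of these routes. A gene was called marked when a peak region overlapped, by at least 1 bp, the stretch of 1 kb to either side of one of its ends in RefSeq GRCh38.

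Lysine lactylation was mapped in CAL27, an established line of human oral squamous cell carcinoma, by CUT&Tag, in which an antibody steers a protein A-Tn5 transposase to cut the DNA beside the modified protein. The antibody was against lactylated lysine on any protein. Untreated cells gave 1 library, with 15696147 tags and 43680 peak regions. The other library, from cells kept in 10 mM lactate over 24 hours, had 15120031 tags and 50352 regions. With 1 library per group no difference has a replicate check and no test was made. The 95% intervals of tag counts and of their ratios cover counting error only. The headers of both lists go against the labels: the command, its input and all peak names are those of the opposite sample. The groups are therefore called the untreated-labelled and the lactate-labelled library, and a swap of the lists would reverse each direction given. Signal from the antibody and cutting of open chromatin cannot be told apart, since a library made without antibody was not used here. At gene ends 3 and 4 of 8 squamous epithelial genes were marked (37.5% and 50%, untreated-labelled, then lactate-labelled library). This was near the 43.5% and 49.5% of all protein-coding genes. KRT5, KRT17 and SFN were marked in both libraries and KRT6A in the lactate-labelled one, with TP63, CDH1, DSG3 and KRT14 at 0. Of these TP63, CDH1 and DSG3 held regions inside the gene in both libraries. Of 8 hepatocyte and adipocyte genes, PLIN1 was marked in the untreated-labelled library alone, APOA1 in the lactate-labelled one alone and the other 6 in neither (12.5% in each library). No cell type was read from these counts.

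Cells build cholesterol from acetyl-CoA through mevalonate, isoprenoid diphosphates, squalene and lanosterol. Fatty acids are built from the same acetyl-CoA by its carboxylation, chain assembly, elongation and desaturation, and acyl-CoA synthetases activate them for use. Both routes are switched on by SREBP transcription factors, which SCAP escorts out of the endoplasmic reticulum when sterols are low, which INSIG proteins hold back when sterols are high, and which the site-1 and site-2 proteases release. SREBPs bind sterol regulatory elements in target promoters, usually beside NF-Y or Sp1 sites.

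In the untreated-labelled library 22 of the 40 genes were marked (55.0%, exact Clopper-Pearson interval 38.5 to 70.7), against 43.5% of all protein-coding genes. The lactate-labelled library marked 29 (72.5%, interval 56.1 to 85.4), against 49.5%. These intervals treat genes as separate draws, and nothing about the list is read from them. In both libraries 22 were marked (background 39.8%), in the lactate-labelled library alone 7 (background 9.7%), in the untreated-labelled library alone 0 (background 3.74%) and in neither 11 (background 46.8%). The 7 were ACAT1, EBP, SC5D, SCAP, ELOVL5, FASN and ACSL3. With windows of 500 bp 4 of them remained, ACSL3, EBP, FASN and SC5D (10%, background 8.97%). The highest gene-end fold enrichment per marked gene had a median of 5.22 in the untreated-labelled library and 6.25 in the lactate-labelled one, beside 5.14 and 5.49 over all marked protein-coding genes. Fold enrichment is the authors' value for each peak over its local background, and ranks peaks within 1 list. More than 1 gene-end region was held by 3 of the 40 genes in the untreated-labelled library (background 7.72%) and by 6 in the lactate-labelled one (background 11.2%). Leaving out the 10 genes whose region also lay at an end of another protein-coding gene left 13 and 19 of 30 marked (43.3% and 63.3%). Only marked genes can be left out by this rule, so the lower shares were built into it. The share of all protein-coding genes was not recomputed under this rule, so no matching background is given.

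**Figure D1:**
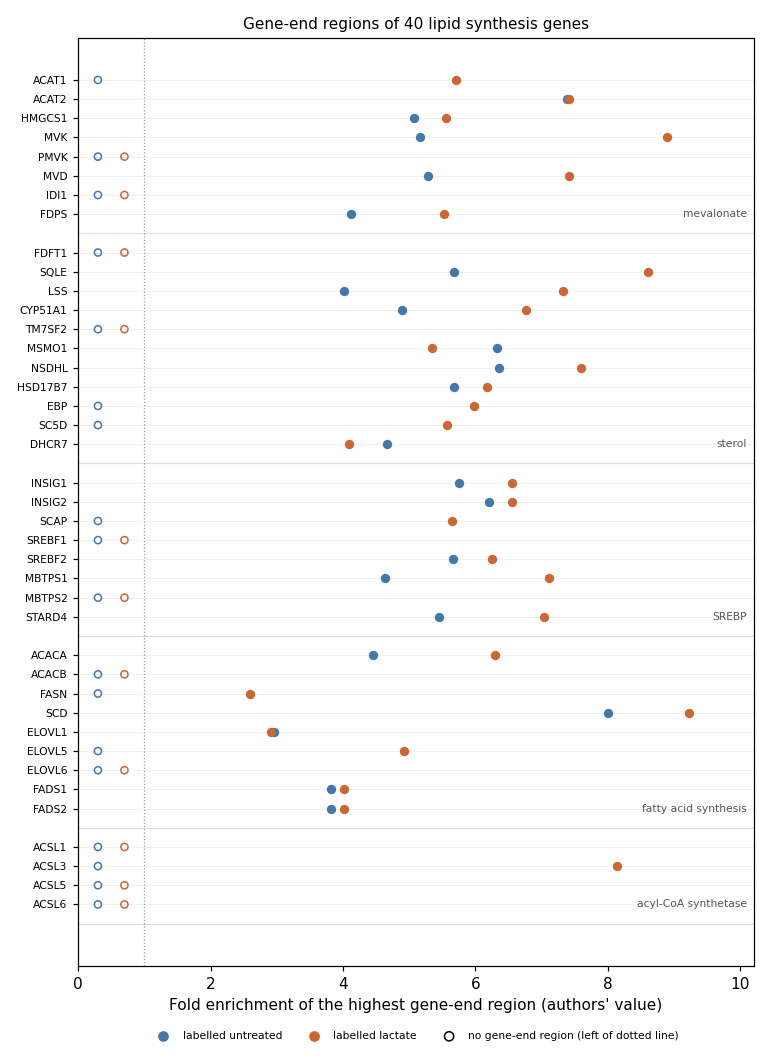
Highest gene-end fold enrichment (x axis, the authors' value) of each of the 40 genes (y axis, by pathway), with filled points for the untreated-labelled library (blue) and the lactate-labelled library (orange) and open circles left of the dotted line for genes with no gene-end region. The 7 genes with an open blue and a filled orange point are marked in the lactate-labelled library alone, and SCD has the highest point of each library, 8.0 and 9.23.

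By pathway, the mevalonate genes were marked in 5 and 6 of 8 (untreated-labelled, then lactate-labelled library), the sterol genes in 7 and 9 of 11, the SREBP genes in 5 and 6 of 8, the fatty acid genes in 5 and 7 of 9 and the acyl-CoA synthetase genes in 0 and 1 of 4. On the cholesterol side as a whole this was 17 and 21 of 27 (63% and 77.8%), and on the fatty acid side 5 and 8 of 13 (38.5% and 61.5%). The background over all protein-coding genes was 43.5% and 49.5%. Without the acyl-CoA synthetases, the fatty acid genes had 55.6% and 77.8%. Regions at starts inside the gene span, as at PMVK, IDI1, ACACB and ACSL1, are not counted here. The difference between the sides was not tested.

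**Figure D2:**
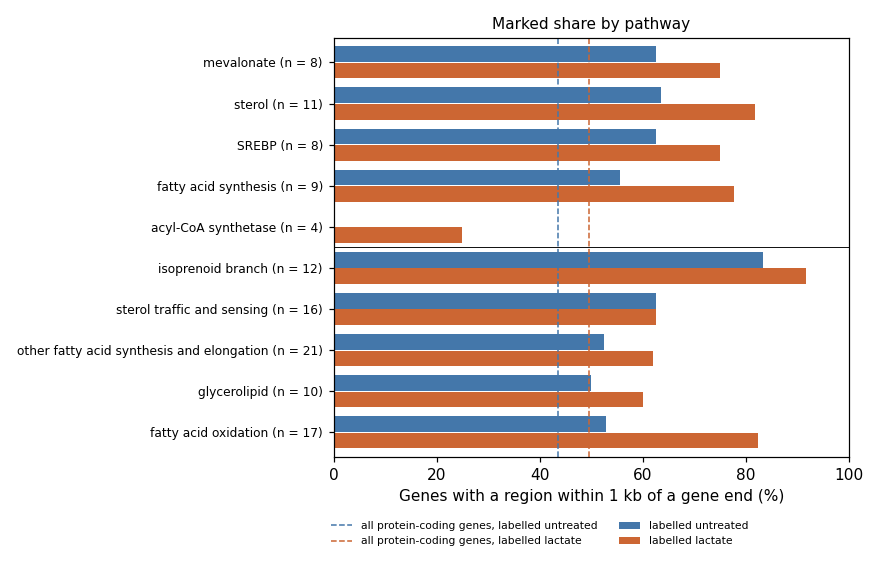
Share of genes with a region within 1 kb of a gene end (x axis, percent, from 0) for the 5 pathways of the list and, under the black line, 5 related lipid lists (y axis, with the number of genes), in the untreated-labelled (blue) and lactate-labelled (orange) library. Dashed lines give the share of all protein-coding genes, 43.5% and 49.5%, and of the 10 lists the acyl-CoA synthetases alone lie under both lines.

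In the mevalonate pathway, ACAT2, the cytosolic thiolase that joins acetyl-CoA units, carried the highest fold enrichment in the untreated-labelled library, 7.39 at a pileup of 33 tags, and 7.41 at 35 tags in the lactate-labelled one. Pileup is the number of tags stacked at the summit, not scaled for depth. Its region, chr6:159761926-159762483 and chr6:159761812-159762511, also lay at an end of SOD2. MVK, the mevalonate kinase gene, had 5.16 at 18 tags and 8.89 at 36 tags, in a region shared with the end of MMAB. HMGCS1, the HMG-CoA synthase gene, had 5.07 at 20 tags (chr5:43312990-43313929) and 5.56 at 24 tags (chr5:43313194-43313913). All 3 genes thus had a peak in both libraries, with more tags in the lactate-labelled one.

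MVD, the mevalonate diphosphate decarboxylase gene, was marked at both ends, its start with 5.28 and 7.41 and its far end, which it shares with CYBA, with 5.18 and 5.19. FDPS, which makes farnesyl diphosphate, had 4.12 at 15 tags and 5.53 at 22 tags in a region that also lay at an end of PKLR. ACAT1, the mitochondrial thiolase, was marked in the lactate-labelled library alone. That region (chr11:108115818-108116028, 11 tags, fold enrichment 5.71) had its summit at -5591 bp from the nearest transcription start listed for the gene (negative distances are upstream), and the nearest region of the untreated-labelled library was 75 kb from a gene end.

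PMVK and IDI1, for the kinase that follows MVK and the isopentenyl diphosphate isomerase, counted as marked in neither library, because RefSeq's gene span runs past the start that carries the region. At PMVK the summits lay at -266 and -263 bp from the start, with 24 and 48 tags and fold enrichments of 4.43 and 8.54. At IDI1 they lay at -22 and -180 bp, with 12 tags in each library and fold enrichments of 4.39 and 4.81. The call of "neither" thus came from the annotation of the gene ends at these 2 genes.

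In the sterol pathway SQLE, the squalene epoxidase gene, had a fold enrichment of 5.68 at 19 tags (chr8:124997730-124998846) and 8.61 at 30 tags (chr8:124997902-124998600). LSS, whose product closes the sterol rings, had 4.01 at 16 tags (chr21:46228600-46229002) and 7.33 at 32 tags (chr21:46228657-46229326). CYP51A1, the lanosterol demethylase gene, had 4.89 at 21 tags and 6.77 at 25 tags over a region of 1442 and 1098 bp with 5 and 3 summits. NSDHL, a sterol dehydrogenase gene on the X chromosome, had 6.35 at 15 tags and 7.60 at 18 tags, in a region shared with the end of CETN2.

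MSMO1, the methylsterol monooxygenase gene, and DHCR7, which encodes the last reductase of cholesterol synthesis, were the 2 shared sites with more tags in the untreated-labelled library. MSMO1 had 18 and 16 tags with fold enrichments of 6.33 and 5.35, and DHCR7 20 and 15 tags with 4.67 and 3.46. At DHCR7 the lactate-labelled library had a further region, 353 bp downstream of a start, with 4.09. HSD17B7, a sterol ketoreductase gene, had 5.67 at 15 tags and 6.17 at 18 tags.

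EBP, the sterol isomerase gene, and SC5D, a sterol desaturase gene, were marked in the lactate-labelled library alone, both just upstream of the start. The EBP region (chrX:48521622-48521879) had 13 tags (exact Poisson interval 6.92 to 22.2) over a local background of 1.34 and a fold enrichment of 5.98. It also lay at an end of PORCN. The SC5D region (chr11:121292560-121292763) had 10 tags (interval 4.80 to 18.4) over 0.976 and a fold enrichment of 5.57. The nearest region of the untreated-labelled library was 10.6 kb from an end of EBP and 151 kb from an end of SC5D. A peak list holds only what passed the caller's threshold, so a level in the untreated-labelled library cannot be given.

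FDFT1, the squalene synthase gene, and TM7SF2, a sterol reductase gene, were marked in neither library. FDFT1 held a region 6.92 and 6.80 kb inside its lower end, with 9 tags and 3.42 in the untreated-labelled library and 21 tags and 6.83 in the lactate-labelled one. A further region inside FDFT1, with 7 tags and 3.64, was in the untreated-labelled library alone. No start was held for FDFT1, so whether these regions lie at one was not determined. TM7SF2 held no region inside, but a region of 50 and 51 tags lay 1.25 kb from its lower end in both, just outside the window.

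Among the SREBP genes, SREBF2, which encodes the SREBP of sterol synthesis, had a fold enrichment of 5.66 at 24 tags (chr22:41832602-41833037) and 6.25 at 27 tags (chr22:41832560-41833147), in a region that also lay at an end of CCDC134. A second pair of regions lay inside SREBF2, with 5.66 at 17 tags and 8.06 at 33 tags and summits 19 bp apart. SREBF1, which encodes SREBP-1, was marked in neither library. It held 1 region inside it in the untreated-labelled library, with 27 tags and a fold enrichment of 3.76, and 2 in the lactate-labelled one, with 30 tags and 3.74 and with 28 tags and 3.49. The nearest region outside its upper end was 3.10 and 2.88 kb away.

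INSIG1 and INSIG2, the 2 anchors that hold SCAP in the endoplasmic reticulum, were marked in both libraries. INSIG1 had 28 and 41 tags with fold enrichments of 5.75 and 6.56, and a region inside the gene with 5.92 and 6.34. INSIG2 had 16 and 18 tags with 6.20 and 6.55, and 2 weaker regions downstream of its start (3.52 and 4.17) in the lactate-labelled library alone. MBTPS1, the site-1 protease gene, had 22 and 35 tags with 4.64 and 7.11, and STARD4, a cytosolic sterol carrier gene, 17 and 26 tags with 5.45 and 7.03.

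SCAP, the sterol sensor and SREBP escort, was marked in the lactate-labelled library alone. That region (chr3:47475868-47476187) had 12 tags (interval 6.20 to 21.0) over a local background of 1.30, a fold enrichment of 5.65 and its summit at -93 bp from the start. An E-box of the SCAP promoter, at -58 bp, lay inside it. Inside SCAP lay 2 further regions of the lactate-labelled library, with 5.00 and 5.06, and 0 of the untreated-labelled one, whose nearest region was 32.6 kb away. MBTPS2, the site-2 protease gene, had no region at an end or inside in either library.

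The promoters of 7 of these genes are shown to place the regions on the sequence around SREBP and NF-Y motifs. They were taken from RefSeq (GRCh38.p14), end on the last base before the start and are written 5′ to 3′ on the gene's strand. Capitals mark the sterol regulatory element TCACNCCAC, the E-box CACGTG and the NF-Y box CCAAT, each on either strand.
HMGCS1: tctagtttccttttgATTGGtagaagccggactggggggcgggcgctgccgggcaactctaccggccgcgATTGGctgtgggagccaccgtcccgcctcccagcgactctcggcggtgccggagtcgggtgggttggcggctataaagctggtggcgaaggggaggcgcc
MSMO1: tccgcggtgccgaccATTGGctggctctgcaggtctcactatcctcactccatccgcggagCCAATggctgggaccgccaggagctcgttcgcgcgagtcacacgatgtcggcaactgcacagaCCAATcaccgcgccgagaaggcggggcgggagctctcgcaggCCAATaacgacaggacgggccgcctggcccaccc
NSDHL: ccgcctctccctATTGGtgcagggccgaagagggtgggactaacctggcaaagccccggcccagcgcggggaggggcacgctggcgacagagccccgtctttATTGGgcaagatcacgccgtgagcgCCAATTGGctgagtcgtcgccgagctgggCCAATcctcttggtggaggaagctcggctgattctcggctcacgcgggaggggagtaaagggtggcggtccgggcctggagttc
SREBF2: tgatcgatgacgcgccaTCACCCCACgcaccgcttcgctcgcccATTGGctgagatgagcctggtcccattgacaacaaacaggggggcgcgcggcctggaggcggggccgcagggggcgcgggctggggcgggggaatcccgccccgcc
INSIG1: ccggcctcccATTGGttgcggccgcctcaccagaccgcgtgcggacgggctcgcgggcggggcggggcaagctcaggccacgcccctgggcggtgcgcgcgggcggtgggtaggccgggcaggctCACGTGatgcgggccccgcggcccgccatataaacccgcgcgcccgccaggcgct
SC5D: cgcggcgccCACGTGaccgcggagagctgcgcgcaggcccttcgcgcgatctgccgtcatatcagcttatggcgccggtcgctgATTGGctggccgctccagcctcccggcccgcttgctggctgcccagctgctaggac
EBP: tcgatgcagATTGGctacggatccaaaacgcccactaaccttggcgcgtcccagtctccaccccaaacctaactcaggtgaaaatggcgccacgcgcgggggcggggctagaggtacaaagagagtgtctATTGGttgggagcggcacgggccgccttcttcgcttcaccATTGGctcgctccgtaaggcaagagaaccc
The stretches are chr5:43313413-43313582 (minus strand), chr4:165327469-165327668, chrX:152830823-152831062, chr22:41832955-41833104, chr7:155297698-155297877, chr11:121292631-121292770 and chrX:48521608-48521807 (all plus strand), in the order printed.

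All 250 bases before the start lay within the regions of both libraries at HMGCS1, MSMO1, NSDHL and INSIG1. At SREBF2 183 bases did in the untreated-labelled library and 250 in the lactate-labelled one, at SC5D 0 and 204 and at EBP 0 and 186. The sterol regulatory element of SREBF2 (chr22:41832972-41832980) was inside the region of each library, and the summit of the lactate-labelled library, at 41832981, was the base after it. The summit of the untreated-labelled library was at 41832875. Of the 3 NF-Y boxes printed for EBP, the 2 nearer to the start were inside the lactate-labelled region, as were the E-box and the NF-Y box of SC5D. MVK held 5 NF-Y boxes, all inside the regions of both libraries.

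RefSeq promoters, of 250 bases before and 50 after the start, were held for 36 of the 40 genes, with 58 promoters in all. ACAT2, FDFT1, SQLE and FASN were not matched. The sterol regulatory element was found at 3 of the 36 genes (8.33%), against 1.51% of protein-coding genes in the table, and of the 3 only that of SREBF2 lay in a peak region. The other 2 were at ACSL1 and ACSL6, which have 5 and 7 starts listed. An E-box was found at 5 genes (13.9%, against 10.9%), an NF-Y box at 25 (69.4%, against 42.1%) and the GC box GGGCGG at 31 (86.1%, against 64.3%). Per promoter the shares of the sterol regulatory element were 5.17% and 1.13%. Those of the NF-Y box were 48.3% and 34.7%, and the median GC content was 67.3% and 62.3%. Of the 37 member promoters with a lactate-labelled region within 1 kb, 23 held an NF-Y box, and of the 21 without, 5 did. In the untreated-labelled library these counts were 18 of 29 and 10 of 29. GC content moved with this too, at a median of 68.0% with and 62.0% without a region in the lactate-labelled library, and its part was not tested. Promoters of 1 gene can overlap and are not separate cases. The NF-Y counts with and without a region were not made over all protein-coding promoters, so they have no background here. In both libraries the promoters without a region include all 7 of ACSL6, none with an NF-Y box, and most of the 5 of ACSL1. Only exact matches to the letters were counted, and a match is no proof of a bound site.

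Starts were marked more often than far ends. Of the 36 genes, 23 were marked within 1 kb of a start in the untreated-labelled library (63.9%, background 46.1%) and 29 in the lactate-labelled one (80.6%, background 52%). At the far end 2 genes were marked in each (5.56%, background 5.69% and 7.02%), namely MVD and SCD. The summit of the strongest region at each start lay at a median of -117 bp in the untreated-labelled library, with 20 of 23 upstream, and of -93 bp in the lactate-labelled one, with 23 of 29 upstream. Over all protein-coding genes the medians were -78 and -73 bp, with 75.8% upstream in each library.

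**Figure D3:**
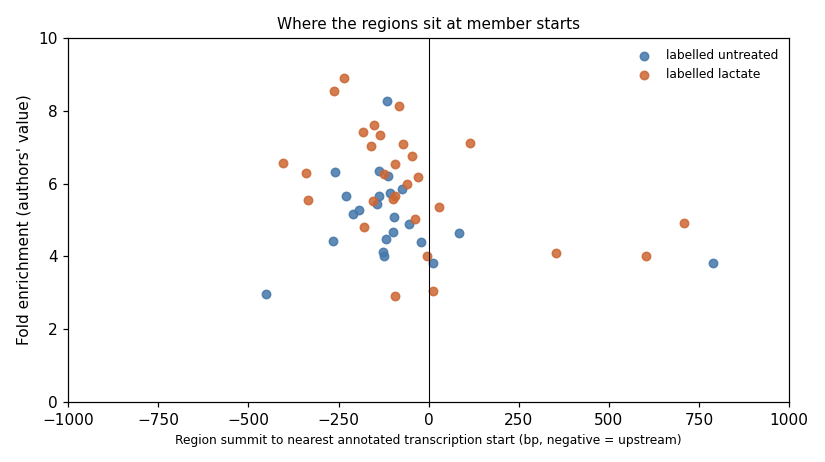
Fold enrichment (y axis, the authors' value, from 0) of the strongest region within 1 kb of an annotated start against the distance of its summit to the nearest start (x axis, bp, negative upstream), 1 point per gene and library, for 23 genes in the untreated-labelled (blue) and 29 in the lactate-labelled (orange) library. In the 200 bp to either side of the start lie 17 of 23 points (73.9%) and 21 of 29 (72.4%), beside 64.2% and 65.1% of all protein-coding genes marked at a start.

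Among the genes of fatty acid synthesis, SCD, the stearoyl-CoA desaturase gene, had the highest gene-end fold enrichment of the list in both libraries, 8.0 at 23 tags (chr10:100364813-100365151) and 9.23 at 30 tags (chr10:100364813-100365182). This region lay at the far end of the gene, 17746 and 17735 bp downstream of the start, and no region lay within 1 kb of the start in either library. FASN, the fatty acid synthase gene, was marked in the lactate-labelled library alone (chr17:82098234-82098503), with 17 tags (interval 9.90 to 27.2) over a local background of 5.94. Its fold enrichment of 2.59 was above only 0.652% of the gene-end regions of that list. The nearest region of the untreated-labelled library was 7.78 kb away.

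ACACA, the acetyl-CoA carboxylase gene that commits acetyl-CoA to fatty acids, was marked at its outermost start, in a region shared with TADA2A, with 4.46 at 13 tags and 6.29 at 20 tags. The untreated-labelled library had a further region there, over the gene end itself, with 12 tags, 4.11 and its summit at -31 bp, which overlapped none of the lactate-labelled library. A second start of ACACA, inside the gene, had 20 tags in each library with 4.47 and 4.27, and a site at -2622 and -2643 bp from it had 35 tags in each, with 7.93 and 7.35. ACACB, the carboxylase of the mitochondrial surface, was marked at neither end but had a region at an inner start in both libraries, with 16 and 13 tags and 5.86 and 5.04. Inside ACACB lay 4 regions of the untreated-labelled library and 1 of the lactate-labelled one.

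ELOVL1, a fatty acid elongase gene, had low fold enrichments of 2.96 and 2.92 at 20 and 22 tags, over local backgrounds of 6.10 and 6.88. FADS1 and FADS2, the delta-5 and delta-6 desaturase genes, overlap at their starts and were marked by 1 shared site, with 18 tags in each library and 3.82 and 3.21. Each library had a further region beside it with no overlap in the other. That of the untreated-labelled library had 16 tags and 3.65, with its summit at -863 bp from the FADS2 start, and that of the lactate-labelled one 23 tags and 4.01, with its summit at -5 bp from the FADS1 start. ELOVL5 was marked in the lactate-labelled library alone, 710 bp downstream of its start, with 11 tags (interval 5.49 to 19.7) and 4.92. ELOVL6 had no region at an end or inside in either library.

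Of the long-chain acyl-CoA synthetase genes, ACSL3 had the strongest of the 7 regions found in the lactate-labelled library alone (chr2:222860829-222861096). It held 27 tags (interval 17.8 to 39.3) over a local background of 2.44, with a fold enrichment of 8.14, higher than 91.0% of gene-end regions in that list, and its summit was at -81 bp from the start. The untreated-labelled library had no region nearer than 5.10 kb to an end of ACSL3. ACSL1 had no gene-end region but was marked at 1 of its 5 starts in both libraries, with 21 and 19 tags and 8.27 and 7.09. ACSL5 had a region at a start in the lactate-labelled library alone, with 11 tags and 3.06, and an inner site with summits 1 bp apart, with 5.33 at 12 tags and 10.0 at 26 tags. ACSL6 had no region at any of its 7 starts, and held 2 and 3 regions inside.

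With either a gene end or an annotated start counted, a rule added after the data were seen, 26 genes were marked in the untreated-labelled and 34 in the lactate-labelled library, against 46.5% and 52.6% of all protein-coding genes. The 8 genes then in the lactate-labelled library alone (20%, background 9.87%) were the 7 above and ACSL5.

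Regions inside the genes, away from the ends, lay in 20 of the 40 genes in the untreated-labelled library (50%, background 35.5%) and in 19 in the lactate-labelled one (47.5%, background 38.2%). They numbered 32 and 34, or 1.74 and 1.85 per 100 kb of gene, beside 1.34 and 1.57 over all protein-coding genes. With lists of equal length, the 21726 strongest regions of each library, the counts fell to 11 and 10 genes (27.5% and 25%, background 22.7% and 22.9%). Some regions counted as inside lay within 1 kb of an annotated start within the gene span. This held at PMVK, IDI1, ACSL1, ACACA and ACACB in both libraries, and at ACSL5 in the lactate-labelled one. In the full lists all 4 acyl-CoA synthetase genes held a region inside in each library, which at ACSL1 was only the one at a start. Of the 32, 23 overlapped a region of the other library (71.9%, beside 68.6% over all protein-coding genes), and of the 34, 22 did (64.7%, beside 58.1%). One of the strongest was inside LSS, with 6.77 and 9.40 at 17 and 24 tags and summits 2 bp apart. TM7SF2, MBTPS2 and ELOVL6 were the 3 genes with no region at an end or inside in either library (background 28.2%).

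At gene ends the list had 26 separate regions in the untreated-labelled library, of which 24 overlapped one of the other library (92.3%, beside 85.4% over all protein-coding genes), and 34 in the lactate-labelled one, of which 23 did (67.6%, beside 70.6%). At the shared sites, 1 pair per gene, summit pileup divided by the library's total tags was compared. It was higher in the lactate-labelled library at 20 of 22 genes (90.9%, beside 76.3% of 7760 protein-coding genes), at 21 separate sites since FADS1 and FADS2 share one, where the pileups were equal at 18 tags and the ratio of 1.04 comes from the depths. The median ratio was 1.25, from 0.779 at DHCR7 to 2.08 at MVK and LSS, beside a median of 1.24 over all protein-coding genes with a shared site. At some sites the paired summits were far apart, up to 469 bp at HMGCS1. Over the 15 genes with summits within 200 bp, a restriction added after the data were seen, the median was 1.52 and 14 were higher in the lactate-labelled library, beside a median of 1.23 and 76% over 6407 protein-coding genes. The interval of the ratio left out 1 at 3 genes, MVK (1.15 to 3.88), LSS (1.11 to 4.05) and MVD (1.74, 1.04 to 2.99). All 22 intervals held 1.24, the median of all genes, at pileups of 13 to 42 tags. No departure of a single site from that median was detected.

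**Figure D4:**
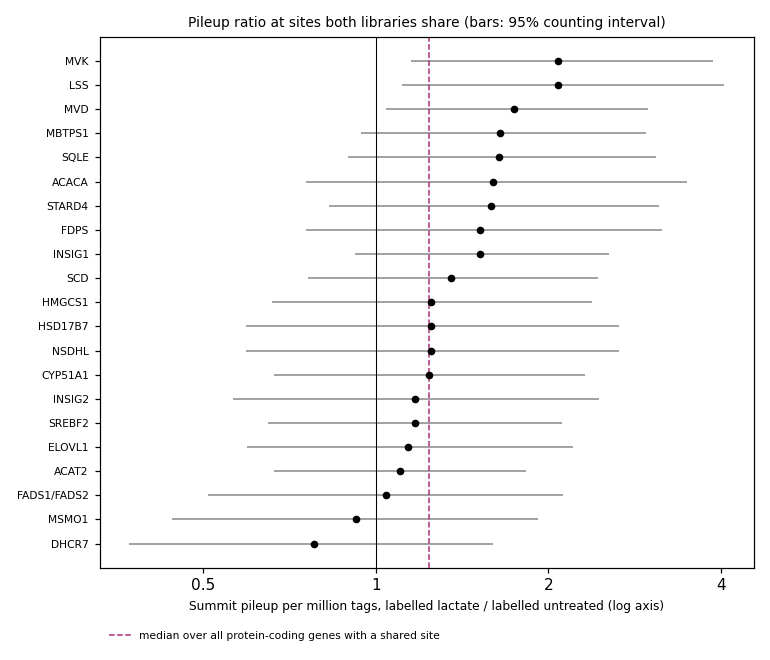
Ratio of summit pileup over total tags, lactate-labelled over untreated-labelled library (x axis, log scale), at the 21 sites that both libraries share (y axis), with bars for the 95% interval from counting error. The dashed line is the median over all protein-coding genes with a shared site, 1.24, and every bar crosses it.

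By pathway the median ratio was 1.52 over 5 mevalonate genes (all 5 above 1), 1.25 over 7 sterol genes (5 above 1), 1.52 over 5 SREBP genes (all 5 above 1) and 1.14 over 5 fatty acid genes (all 5 above 1). Over all protein-coding genes with a shared site the median was 1.24, with 76.3% above 1. No difference between pathways was tested. The fatty acid median counts the site that FADS1 and FADS2 share once for each gene, at 1.04 from equal pileups of 18 tags. The other fatty acid sites had 1.14 (ELOVL1), 1.35 (SCD) and 1.60 (ACACA). No acyl-CoA synthetase gene had a shared gene-end site.

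Related lipid genes were counted in the same way, in 5 lists. The isoprenoid branch, which turns farnesyl diphosphate into prenyl chains, was marked in 10 and 11 of 12, with COQ2 in the lactate-labelled library alone (6.47) and its highest values at ICMT (9.72) in the untreated-labelled library and RABGGTB (8.48) in the lactate-labelled one. Genes of sterol traffic and sensing were marked in 10 and 10 of 16, the same 10 in each, among them OSBP (7.69 and 4.12) and MYLIP (5.16 and 6.68). Other genes of fatty acid synthesis and elongation were marked in 11 and 13 of 21, with FADS3 (2.79), HACD1 (5.08) and HACD3 (5.12) in the lactate-labelled library alone, MECR (4.40) in the untreated-labelled one alone, and ACSS2 (6.96 and 8.23) the highest in each. Glycerolipid genes were marked in 5 and 6 of 10, with LPIN2 (4.60) and PNPLA2 (4.21) in the lactate-labelled library alone, LPIN1 (4.86) in the other alone and AGPAT1 (6.11 and 5.90) the highest in each. Fatty acid oxidation genes, of the opposite route, were marked in 9 and 14 of 17, with ACAA2 (5.36), CPT2 (6.69), ETFA (3.83), ETFB (3.13) and SLC25A20 (5.06) in the lactate-labelled library alone and the highest values at ETFDH (7.5) in the untreated-labelled and ACADM (9.29) in the lactate-labelled library. Over the 5 lists together 45 and 54 of 76 genes were marked (59.2% and 71.1%, background 43.5% and 49.5%), beside 55.0% and 72.5% of the 40 genes of synthesis. Of the 76, 11 were marked in the lactate-labelled library alone (background 9.7%) and 2 in the untreated-labelled one alone (background 3.74%). No difference between the lists was tested.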

How the data were processed

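The submitters' processing notes name fastp 0.20.0, BWA, MACS2 2.1.0 and the build hg38. Each library had its own MACS2 run with no control, at a q of 0.05, shifting tags by -100 bp and extending them to 200 bp, per the file headers. In the deposited lists pileup is a signal, the tags stacked at a summit without depth scaling. The authors' fold enrichment is a ratio to local background, with 1 added above and below. For spike-in scaling no statement was found in the labels or headers.

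Summits (49750 and 58929) of identical region bounds were merged, and the one of highest fold stood for the region. Chromosomes 1 to 22, X and Y were kept. Gene ends came from RefSeq GRCh38.p14, starts and strand from its promoter table. Local background was recomputed from pileup and fold. Marks were checked with bedtools 2.31.1 (22 and 29 genes by either route) and tested on simulated data. The genes and lists were chosen with earlier results of these data known. Full values are given for genes marked in 1 library alone, for the 2 highest of each pathway and for its best-known genes, and in related lists for genes marked in 1 library alone and up to 2 others. Other named values were chosen after they were seen. Python 3.11.15 was used with pandas 2.3.3, SciPy 1.17.1, numpy 2.4.6 and matplotlib 3.10.9. Tags are not independent molecules.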

Additional observations from a re-analysis of the deposited data

How the results depend on the processing

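Of 48 recomputed values, 39 stayed within 1.5 times the main count or, for the median pileup ratio, within the spread between sites. At a fold enrichment of at least 5, 13 of 40 genes were marked in the untreated-labelled library in place of 22 (32.5%, beside 23.3% of all protein-coding genes) and 9 had a region inside in place of 20 (22.5%, beside 19.2%). With equal lists of the 21726 strongest regions, 11 and 10 genes had a region inside, in place of 20 and 19 (27.5% and 25%, beside 22.7% and 22.9%), so the members' shares were then nearer to those of all genes. Under equal lists 1 gene, DHCR7, was marked in the untreated-labelled library alone (background 5.77%), as it also was (1 gene, background 3.55%) when −log10 p, recomputed from pileup and background, had to reach 7. The count in the lactate-labelled library alone was 4 with windows of 500 bp (ACSL3, EBP, FASN and SC5D), which is 10% beside 8.97% of all genes, against 17.5% beside 9.7% with 1 kb. It was 6 to 10 under all other settings run, or 15% to 25%, beside 6.51% to 10.9% of all genes where that was counted. FASN and ELOVL5 were not among them at either stricter threshold or with equal lists, where genes such as LSS, FDPS and ACACA were. Without the genes that share a region with a protein-coding neighbour, an alternative chosen after seeing the data, 13 of 30 and 19 of 30 were marked (43.3% and 63.3%). That rule can leave out only marked genes, so a fall in the share was fixed in advance. No share of all genes was counted under that rule. No paired analysis was possible because each group had 1 library, and no library could be left out. Pileups of 13 to 42 tags limit the precision of each shared site.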
